A study of Helicoverpa armigera with 12 samples.

Results

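Whole bodies of adult moths of *Helicoverpa armigera*, the cotton bollworm, were compared with whole bodies of its 1st instar larvae, gene function by gene function. The members were the assembled contigs with a mean of at least 1 FPKM (fragments mapped to a contig, divided by its length and by the total mapped in that library) over the 12 libraries of the series, less 14 whose best protein match was in mouse (5) or in the whipworm Trichuris suis (9). This left 27664 of 99711 contigs, from 17781 unigenes, and 13300 of the 27664 carried a description that names a protein. The study followed the opsin genes of this nocturnal noctuid through development. The larval group was 4 pools of 30 animals, taken on day 3 after hatching, and the labels do not give their sex. The adult group was 4 pools of 10 moths, taken on day 1 after eclosion: males in replicates 1 and 2, females in replicates 3 and 4. All animals were reared on artificial diet at 25 °C, the moths were offered sugar and vitamins, and no treatment or genotype set the groups apart. A further 4 pools of 5th instar larvae entered the estimate of spread, the mean over 12 libraries that set the minimum level, and the rescaling of libraries described below. A contig can therefore have passed the minimum through 1 group alone, also through 5th instar larvae. Nothing in the sources says that the pools of a group came from separate rearings, so p-values measure the spread between pools, which may be technical. In the comparison of adults with larvae both sexes formed 1 group, so that spread includes the difference between males and females.

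A caterpillar is a feeding and growing stage. Its midgut secretes serine proteases, lipases and other hydrolases into a lumen lined by the chitinous peritrophic matrix, and its soft cuticle is replaced at each moult. In the pupa most larval tissues are broken down and the adult is built with compound eyes, wings, flight muscle, antennae and gonads. The moth drinks nectar and does not chew plant tissue.

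The libraries were scaled very differently by the deposited values. The FPKM of a library summed to 1326989 to 1509632 in 1st instar larvae, to 648908 and 688947 in males, and to 542615 and 447094 in females, and the deposited values carry no read counts, so the counts behind a value are not given. Across contigs, which are not independent replicates, Pearson's r of log2(FPKM + 1) was 0.971 to 0.977 between larval pools, 0.882 between the males, 0.846 between the females and 0.617 to 0.712 between a male and a female pool. Larvae correlated with females at 0.560 to 0.584 and with males at 0.378 to 0.387. Female replicate 3 stood apart from replicate 4 in several classes of transcript. Its mitochondrially encoded contigs were low and its yolk protein contigs were high, as described further on. UDP-glycosyltransferases held 0.0534% of the FPKM of replicate 3 and 0.185% of replicate 4. Desaturases, acyl reductases and elongases held 0.087% and 0.315%, and cytosolic ribosomal proteins 24.4% and 15.3%. In whole bodies, fewer cells of a type and less RNA per cell cannot be told apart.

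In adults, 3905 contigs were higher (14.1% of those counted) and 8741 were lower (31.6%) than in 1st instar larvae, by limma on log2(FPKM + 1) with a Benjamini-Hochberg adjusted p under 0.05. With the sexes as separate groups in that fit, 5524 were higher and 9364 lower. The balance of the 3905 and 8741 calls depended on scaling. Of the called contigs, 30.9% were higher on the deposited values, 45.8% with median-ratio scaling, 47.4% with quantile normalization and 70% when every library was set to the same sum, and the median change of all contigs moved from -0.12 to 0.13, 0.13 and 0.67 on the log2 scale. Calls the same way under all 4 scalings numbered 3883 higher (14.0%) and 4137 lower (15.0%), a count chosen after seeing the data. Without regard to a test, all 4 adult pools lay above all 4 larval pools for 4585 contigs (16.6%) and below for 9083 (32.8%). Contigs were grouped into 40 gene lists by words in their descriptions, and each list below is given by its counts and its median change on the log2 scale, to be read beside the median of -0.12 over all contigs. The counts of a list are to be read beside the shares over all contigs, 14.1% higher and 31.6% lower, or 14.0% and 15.0% under all 4 scalings. A list median under another scaling is to be read beside the median of all contigs under that scaling. That was 0.13 with median-ratio scaling, 0.13 with quantile normalization and 0.67 with libraries set to 1 sum. Where no contig of a list is said to have been called in a direction, limma also placed 0 of them under an unadjusted p of 0.05 in that direction, unless another count is given.

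For males alone, 5694 contigs were higher (20.6%) and 8720 lower (31.5%) than in 1st instar larvae, with a median change of -0.11. For females alone, 3081 were higher (11.1%) and 7787 lower (28.1%), with a median of -0.17. Under all 4 scalings the counts were 5580 higher (20.2%) and 5220 lower (18.9%) for males, and 3081 higher (11.1%) and 3455 lower (12.5%) for females. Both sexes were called higher for 2076 contigs and lower for 6669, while 49 contigs were higher in males and lower in females and 80 the reverse. The larval libraries are shared by the 2 comparisons, so an equal sign in both sexes is not independent evidence. The direct test between the sexes called 1889 contigs higher in males (6.83%) and 1538 lower (5.56%), 1401 (5.06%) and 1433 (5.18%) of them under all 4 scalings. These counts rest on 2 pools a sex and were unsteady. The 1538 became 705 without male replicate 1, 881 without female replicate 3, 487 with a replicate block, 294 when only the adult libraries were fitted and 3408 with libraries set to 1 sum. The 1889 became 1253 without male replicate 1, 1193 without female replicate 3 and 1033 with a replicate block.

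**Figure D1:**
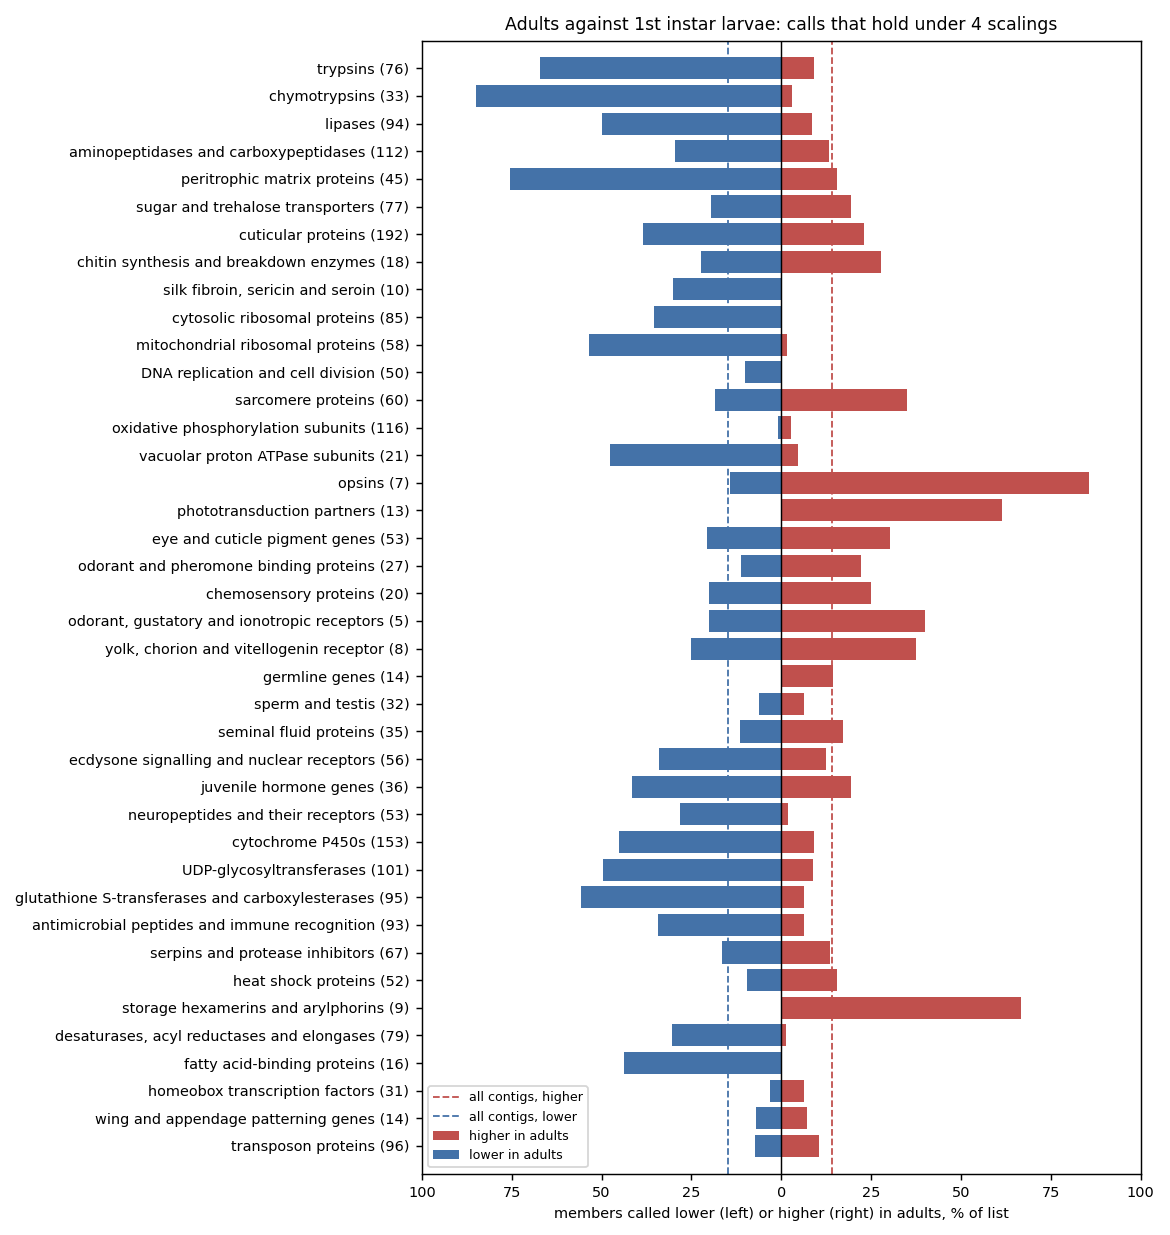
Share of each gene list called lower (blue, to the left) or higher (red, to the right) in adults than in 1st instar larvae, in % of the list, for calls that held under all 4 scalings, with the number of contigs of each list in brackets. The dashed lines mark the shares over all contigs counted, 15.0% lower and 14.0% higher, and the bars of chymotrypsins, peritrophic matrix proteins and trypsins extend farthest to the left and that of opsins farthest to the right.

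The digestive hydrolases of the caterpillar gut were far lower in adults of both sexes. Chymotrypsins and trypsins are the main protein-cutting enzymes of the caterpillar midgut. Of 33 chymotrypsin contigs 28 were lower in adults, under every scaling, and 1 was higher. Their median change was -8.39. Of 76 trypsin contigs 54 were lower, 51 of them under all 4 scalings, and 7 were higher, with a median of -4.40. Without female replicate 3 or 4 the higher trypsins numbered 12 or 11. The share of the FPKM of a library, given here and below, compares libraries as if they were set to 1 sum. Of the 4 scalings that one had the largest part of its calls higher, 70%. Chymotrypsins held 4.48% to 5.01% in larvae, 0.0109% and 0.00239% in males and 0.00489% and 0.0031% in females. Trypsins held 2.75% to 3.01% in larvae and 0.0592% to 0.111% in adults.

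Values below are given for larval pools 1 to 4, male pools 1 and 2, and female pools 3 and 4, in that order. The contig with the highest level among the larval proteases, chymotrypsin-like protease c58594_g2_i1, had 19602, 19668, 17643 and 21850.4 FPKM in larvae, 2.88 and 2.07 in males and 0.87 and 1.26 in females. No adult pool came near the lowest larval pool, and the sexes lay close together. The change was -12.85 on the log2 scale, SE 0.39, adjusted p = 3.42e-10. Chymotrypsinogen c58594_g1_i3 had 7733, 6716, 6756 and 7431 FPKM in larvae, 0 and 0.521 in males and 0.487 and 0.797 in females (-12.30 on the log2 scale, SE 0.38, adjusted p = 4.11e-10), and chymotrypsin c50299_g1_i1 had 1488, 2039, 2279 and 2344 FPKM in larvae, 0.298 and 0 in males and 0 and 0 in females, so that it was listed at 0 in 3 of 4 adult pools. Trypsin-like proteases c58715_g2_i3 and c58715_g5_i3 changed by -11.68 and -11.50, and the diverged serine protease c52620_g1_i1 fell from 6134, 6055, 6353 and 7391 FPKM in larvae to values between 0.41 and 0.606 in adults (-12.07 on the log2 scale, SE 0.21, adjusted p = 2.02e-11). Contigs that share an assembly number, such as c58594 and c58715, may be near-identical copies between which the mapper split reads.

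Lipases, which free fatty acids from dietary and stored fat, fell in 50 of 94 contigs and rose in 8, with a median of -1.88. Neutral lipase c55249_g1_i1 had 5628, 5389, 4609 and 6255 FPKM in larvae, 0.06 and 0.124 in males and 0.195 and 0.466 in females, with no overlap (-12.14 on the log2 scale, SE 0.28, adjusted p = 3.89e-11). Amino- and carboxypeptidases, which trim peptides from their ends, were more mixed: 48 of 112 fell, 33 of them under all 4 scalings, and 17 rose, with a median of -0.56. The carboxypeptidase B precursor c17193_g1_i1 fell by 9.41 and midgut aminopeptidase N2 c59897_g2_i1 by 9.34 on the log2 scale, from larval levels of 605 to 901 and 555 to 796 FPKM to at most 0.306 and 0.067 FPKM in adults. Of 45 contigs for proteins of the peritrophic matrix, the chitin-lined sleeve around the food, 34 fell and 7 rose under every scaling, with a median of -2.88. The shares of the library held by the list overlapped between the stages, at 0.251% to 0.435% in larvae, 0.216% and 0.384% in males and 0.304% and 0.122% in females. The insect intestinal mucin IIM86 c56330_g1_i4, a structural protein of that sleeve, had 761, 1215, 1431 and 960.2 FPKM in larvae and was listed at 0 in all 4 adult pools.

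A small set of digestive contigs went the other way. Beta-fructofuranosidase 2 c59228_g1_i1, an enzyme that splits sucrose, was listed at 0 in all 4 larval pools and had 1173 and 1305 FPKM in males and 158 and 594 in females (adjusted p = 1.7e-07). Alpha amylase c59075_g1_i1, which cuts starch, had 0.483, 0.558, 0.42 and 0.468 FPKM in larvae, 778 and 564 in males and 152 and 225 in females. Its adult pools all lay above its larval pools, males above females, and both sexes rose (8.81 on the log2 scale, SE 0.26, adjusted p = 1.41e-09 in males, 6.97 on the log2 scale, SE 0.26, adjusted p = 2.52e-08 in females), with a difference between the sexes of 1.83 on the log2 scale, SE 0.30, adjusted p = 0.00217. Trypsin alkaline C c54587_g2_i1 had 1.96, 1.96, 1.49 and 2.76 FPKM in larvae, 144 and 265 in males and 129 and 115 in females (5.69 on the log2 scale, SE 0.31, adjusted p = 3.95e-08), and trypsin CFT-1 c62562_g2_i1 rose by 6.23. With the isoforms of its unigene summed, however, the female change of trypsin CFT-1 was -0.05. Peritrophin type-A domain protein c50737_g1_i1 had 0.495, 0.392, 2.79 and 0.169 FPKM in larvae, 333 and 1127 in males and 561 and 71.5 in females (7.66 on the log2 scale, SE 0.83, adjusted p = 1.65e-05), with adult pools that ranged widely in both sexes. Chitin binding protein 2 c55811_g1_i1 had 0.136, 0.048, 0.168 and 0.065 FPKM in larvae, 190.1 and 351 in males and 454 and 245 in females (8.06 on the log2 scale, SE 0.27, adjusted p = 7.08e-10).

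Other hydrolases rose in 1 sex. A putative lipase, c51948_g1_i1, was listed at 0 in all larvae and had 461 and 408 FPKM in males against 11.7 and 0.095 in females, which themselves differed widely. Males were above females by 6.87 on the log2 scale, SE 0.81, adjusted p = 0.000189, and the change in females did not pass the test (adjusted p = 0.0535). Putative serine carboxypeptidase CPVL c63652_g1_i2 was also listed at 0 in larvae and had 0.567 and 0.264 FPKM in males against 350.5 and 176 in females, -7.47 on the log2 scale, SE 0.34, adjusted p = 7.5e-08 for males less females. In males 17 lipases were higher than in larvae, but 11 without male replicate 1, and in females 4.

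Sugar and trehalose transporters, which move the sugar of food and of insect blood into cells, had 30 of 77 contigs lower and 15 higher, and 15 lower and 15 higher under all 4 scalings. Their median of -0.54 became 0.40 when libraries were set to 1 sum, below the 0.67 over all contigs. Sugar transporter 4 c61708_g1_i1 had 5.97, 7.8, 6.84 and 5.67 FPKM in larvae, 162 and 171 in males and 72.8 and 57.1 in females, and rose in both sexes, with males above females (1.36 on the log2 scale, SE 0.37, adjusted p = 0.0384 between the sexes). That call was lost under 13 alternatives, among them libraries set to 1 sum, quantile normalization, a replicate block, and without any single adult or larval pool. A facilitated glucose transporter of solute carrier family 2, c60716_g1_i1, had 103, 117, 122 and 110.4 FPKM in larvae, 6.57 and 7.04 in males and 5.36 and 3.24 in females, and fell in both. By share of the library the list held 0.0769% to 0.0844% in larvae, 0.281% and 0.238% in males and 0.121% and 0.196% in females. In females 10 members were higher, but 6 without female replicate 4.

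**Figure D2:**
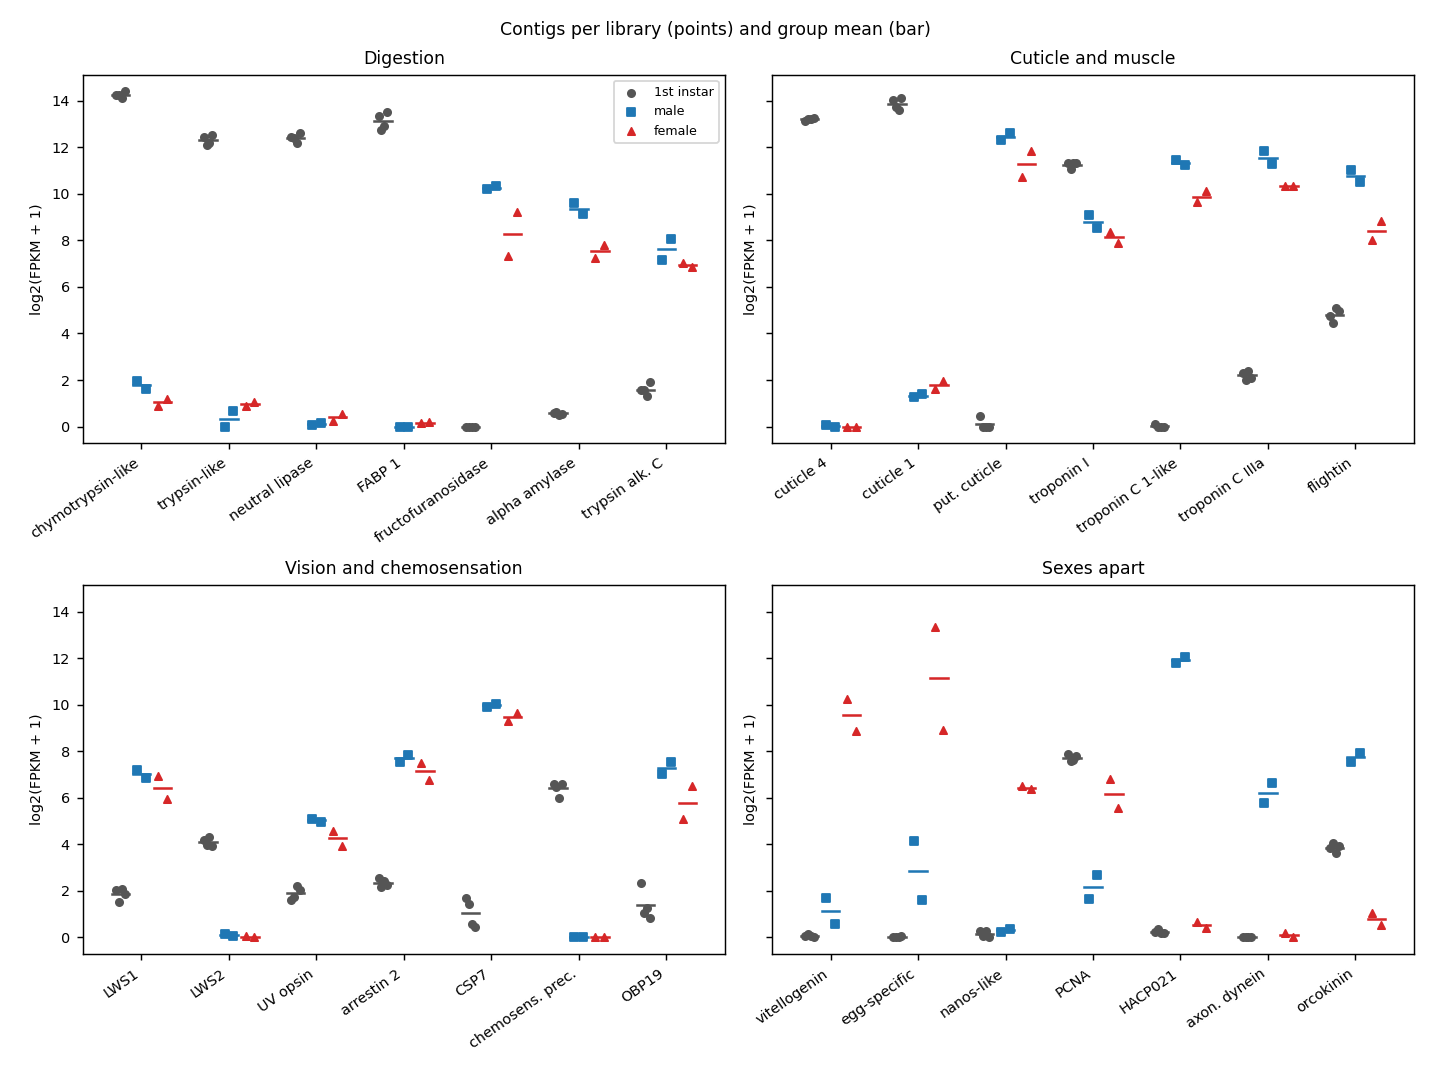
FPKM of 28 contigs in each library, on the scale of log2(FPKM + 1), for 1st instar larvae (grey circles), males (blue squares) and females (red triangles), with a bar at the mean of each group. In the panels on digestion, on cuticle and muscle and on vision and chemosensation both sexes lie on the same side of the larvae, while the fourth panel holds contigs whose sexes lie apart, such as HACP021 with 3576 and 4278 FPKM in males and under 1 FPKM in all other pools.

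Cuticle proteins moved in both directions. The cuticle is chitin bound by many small structural proteins, of which sets are made at different stages. Of 192 contigs 88 fell, 74 of them under all 4 scalings, and 44 rose under every scaling, with a median of -1.0. Both shares lay above those over all contigs. Yet the list held much the same share of the library, 4.86% to 5.32% in larvae, 3.61% and 5.09% in males and 3.46% and 4.12% in females. Both sexes were lower for 72 contigs and higher for 28, and none was higher in 1 sex and lower in the other.

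Among the contigs that fell, cuticle protein 4 c80812_g1_i1 had 9044, 9602, 9652 and 9989 FPKM in larvae, 0.045 and 0 in males and 0 and 0 in females, which leaves 3 of 4 adult pools at 0. Cuticle protein 1 c49613_g1_i1 had 16971, 13571, 12486 and 17651 FPKM in larvae, 1.38 and 1.65 in males and 2.03 and 2.9 in females. It fell by 12.32 on the log2 scale with SE 0.64 and adjusted p = 2.73e-08. Cuticular protein RR-1 motif 42 precursor c11152_g1_i1 went from 3579, 5449, 4973 and 4939.9 FPKM in larvae to at most 0.505 in adults. On the rising side, the putative cuticle protein c48004_g1_i1 had 0.384, 0, 0 and 0 FPKM in larvae, 5064 and 6258 in males and 1682 and 3713 in females, and was above 0 in only 1 larval pool. It had the largest rise in adults of the contigs named here (11.76 on the log2 scale, SE 0.70, adjusted p = 1.03e-07). Putative cuticular protein c52812_g1_i1 was already present in larvae, at 492, 341, 359 and 436 FPKM, and rose to 4864 and 7779.5 in males and 2112 and 3245 in females. A contig described as a pupal cuticle protein precursor, c49506_g1_i1, had 23, 21.7, 23.8 and 20.5 FPKM in larvae, 895 and 732 in males and 77.7 and 309.9 in females, and rose in both sexes. The highest female value of each of these 3 contigs lay below the lowest male value, but the difference between the sexes did not pass the test for any of them (adjusted p = 0.545, 0.191 and 0.0929).

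Enzymes that make and break chitin did not move as 1 group: of 18 contigs 5 rose and 5 fell, and 4 fell under all 4 scalings. The rises rest on both male pools, since 1 is left without male replicate 1 and 1 without male replicate 2. The median of -0.04 was 0.40 to 1.14 under the other scalings. Chitin synthase 2 c64493_g1_i1, the isoform that makes the chitin of the insect gut lining, had 17.3, 26.2, 33.9 and 18.1 FPKM in larvae, 1.4 and 0.972 in males and 0.708 and 0.415 in females, and fell (-3.71 on the log2 scale, SE 0.28, adjusted p = 8.21e-07). The chitinase c61813_g1_i1, from a family that digests old cuticle and has members in other tissues, had 35.6, 21.8, 25.6 and 31 FPKM in larvae, 305 and 245 in males and 1.8 and 4.57 in females. Males lay above and females below the larvae, each past the test (3.24 on the log2 scale, SE 0.29, adjusted p = 7.09e-06 in males, -2.88 on the log2 scale, SE 0.29, adjusted p = 3.07e-05 in females), and the sexes differed by 6.12 on the log2 scale, SE 0.34, adjusted p = 2.85e-07.

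Silk contigs were lower in females, and in males they were divided. Noctuid larvae spin silk from labial glands. Fibroin light chain c55089_g2_i1, a core protein of the fibre, had 1101, 1554, 1734 and 1360.1 FPKM in larvae, 0.082 and 0.062 in males and 0.026 and 0.157 in females, and fell in both sexes. Of the 10 contigs of the list, 3 were lower in adults and none was higher (1 at an unadjusted p under 0.05), though 2 or 1 were higher without female replicate 3 or 4. In males 4 were higher and 3 lower, in females 6 lower, and 5 were higher in males than in females. Seroin 1 c59916_g3_i3, a small protein of silk with antimicrobial activity in Bombyx, had 2.98, 2.46, 2.81 and 2.71 FPKM in larvae, 26.4 and 67.3 in males and 0.312 and 0.314 in females, with males above and females below the larvae (5.04 on the log2 scale, SE 0.43, adjusted p = 1.19e-05 between the sexes). The list held 0.124% to 0.186% of a larval library, 0.161% and 0.119% of a male library and 0.000618% and 0.000391% of a female library. In males it summed to 1045 and 819.3 FPKM, of which fibroin light chain and seroin 1 gave only the values above. Fibroin 1b c56455_g1_i1 had 0.194 and 0.334 FPKM in males, so most of the male share came from members not named here.

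Cytosolic ribosomal proteins held the largest share of larval RNA among the 40 lists, and they were lower in adults of both sexes. The 85 contigs of cytosolic ribosomal proteins, the protein part of the machine that makes all other proteins, held 27.5% to 30.3% of the larval libraries, 8.96% and 7.33% of the male and 24.4% and 15.3% of the female libraries. Of them 82 were lower in adults and none was higher, with a median of -2.49. Under all 4 scalings 30 were lower. Taken by sex, 83 were lower in males, 75 of them under all 4 scalings, and 79 in females, 6 of them under all 4 scalings. A 40S ribosomal protein, c36657_g1_i1, had 15014, 12477, 13259.9 and 16163 FPKM in larvae, 1195 and 1092 in males and 3567 and 1717 in females. Every adult pool was below every larval pool, males lowest (-3.63 on the log2 scale, SE 0.31, adjusted p = 5.25e-06 in males, -2.52 on the log2 scale, SE 0.31, adjusted p = 0.000129 in females). The 60S acidic ribosomal protein P2 c53479_g3_i1 had 10515, 8699, 9257 and 11247 FPKM in larvae, 996 and 767 in males and 3617 and 1301 in females, and ribosomal protein S2 c49853_g1_i1 had 6785, 6711, 6811 and 7794 FPKM in larvae, 475 and 398 in males and 1891 and 717 in females, in the same order, and both passed the test in females on the deposited values but not under all 4 scalings. In the direct test 2 of the 85 were lower in males than in females, none of them under all 4 scalings, and 31 at an unadjusted p under 0.05. With libraries set to 1 sum 59 were lower in males, and 35 without female replicate 4. The difference between the sexes did not pass for any of the 3 named (adjusted p = 0.0739, 0.0738 and 0.202). Mitochondrial ribosomal proteins also fell, in 53 of 58 contigs, 31 of them under all 4 scalings.

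Genes of DNA replication and cell division fell in males and were mixed in females. In males 45 of 50 contigs were lower than in larvae, 37 under all 4 scalings, and none was higher, with a median of -2.45. In females 18 were lower and 6 higher, with a median of -0.49, and 4 of the 18 were lower under all 4 scalings. Without female replicate 3 the 6 became 2, and without female replicate 4 the 18 became 11. Tested directly, 38 of 50 were lower in males than in females, 37 under all 4 scalings, against 5.56% and 5.18% over all contigs. The 38 became 22 without male replicate 1, 20 with a replicate block and 4 when only the adult libraries were fitted. The list held 0.0814% to 0.0898% of a larval library, 0.021% and 0.0277% of a male and 0.141% and 0.121% of a female library.

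Proliferating cell nuclear antigen c56271_g1_i1, the clamp that holds DNA polymerase on its template, had 234, 193, 195 and 220.5 FPKM in larvae, 2.13 and 5.34 in males and 109 and 45.6 in females. The order was larvae, females, males, without overlap (-4.01 on the log2 scale, SE 0.61, adjusted p = 0.00136 for males less females). Thymidylate synthase c61372_g2_i1, which makes a DNA precursor, had 65.2, 50.02, 49.98 and 59.4 FPKM in larvae, 0.776 and 1.65 in males and 8.88 and 10.8 in females, and the same order (-2.32 on the log2 scale, SE 0.29, adjusted p = 0.00028). A cyclin B-like contig, c61776_g1_i1, which drives entry into mitosis and was chosen after its values were seen, had 15.5, 14.1, 16.4 and 15.2 FPKM in larvae, 1.1 and 1.67 in males and 67.1 and 40.9 in females. It was above the larvae in females (1.72 on the log2 scale, SE 0.52, adjusted p = 0.024) and below them in males (-2.78 on the log2 scale, SE 0.52, adjusted p = 0.00127).

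Muscle showed isoforms going in opposite directions. Troponins and tropomyosin switch the thin filament on with calcium, and insects use separate troponin C genes in flight muscle and in body wall muscle. Of 60 sarcomere contigs 21 rose, under every scaling, and 15 fell, 11 of them under every scaling, with a median of 0.56. In males 29 were higher, but 14 without male replicate 1, and 14 lower; in females 11 were higher and 18 lower. In the direct test 14 were higher in males than in females, 3 of them under all 4 scalings, and none was lower (1 at an unadjusted p under 0.05). The 14 became 2 without male replicate 1, and 6 and 7 without female replicates 3 and 4. The list held 1.02% to 1.21% of a larval library, 2.44% and 1.71% of a male and 1.21% and 1.26% of a female library.

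Troponin C isoform 1-like c57573_g1_i1 had 0.087, 0, 0 and 0 FPKM in larvae, 2816 and 2425 in males and 799 and 1122 in females, so that it was listed at 0 in 3 of 4 larval pools (10.59 on the log2 scale, SE 0.46, adjusted p = 6.97e-09). Troponin C type IIIa-like c57744_g1_i1 had 3.89, 2.96, 4.29 and 3.28 FPKM in larvae, 3688 and 2479 in males and 1286 and 1307 in females (8.76 on the log2 scale, SE 0.40, adjusted p = 9.92e-09). Flightin c53528_g2_i1, a thick filament protein of insect flight muscle and a contig chosen after its values were seen, had 25.6, 20.7, 33.6 and 30.2 FPKM in larvae, 2102 and 1452 in males and 258 and 449.9 in females. It rose in both sexes, more in males (2.35 on the log2 scale, SE 0.38, adjusted p = 0.00202). Miniparamyosin c71511_g1_i1, another thick filament protein, had 0.025, 0.333, 0.108 and 0.234 FPKM in larvae, 52.7 and 72.9 in males and 24.2 and 27.4 in females, again with males above females (1.24 on the log2 scale, SE 0.24, adjusted p = 0.00621). The call for miniparamyosin was lost with a pseudocount of 0.1, a replicate block, only the adult libraries fitted, or without male replicate 2. In the other direction, troponin C c75881_g1_i1 had 1088, 982, 1203 and 1119 FPKM in larvae, 259.7 and 278 in males and 111 and 95.8 in females, and troponin I c50343_g1_i2 had 2548, 2153, 2583 and 2580.5 FPKM in larvae, 539 and 369.8 in males and 332 and 236 in females. Both fell, by 2.71 (SE 0.37, adjusted p = 0.000101) and 2.80 (SE 0.31, adjusted p = 2.02e-05) on the log2 scale, so that contigs described as troponin C moved in both directions.

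Oxidative phosphorylation, the respiratory chain and ATP synthase of mitochondria, gave a result that depends on scaling and on single libraries. Of 116 contigs 3 rose and 8 fell in adults on the deposited values, while 55 rose when libraries were set to 1 sum. The 3 became 0 without male replicate 1 or 2 and 7 or 6 without female replicate 3 or 4, and the 8 became 15 without male replicate 2. In males 32 were higher (7 without male replicate 1 and 8 without male replicate 2) and 4 lower (1 without male replicate 1). In females none was higher and 28 were lower (11 without female replicate 3), of which 2 held under all 4 scalings. Over all contigs 28.1% were lower in females, 12.5% under all 4 scalings, and the 28 and 2 of 116 lay below those shares. By share of the library the list held 5.09% to 5.51% in larvae, 12.2% and 14.6% in males and 5.14% and 13.0% in females.

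Among these contigs the 2 females differed in transcripts that mitochondria encode themselves. Cytochrome c oxidase subunit III c36631_g1_i1, a core subunit of the last complex of the chain and the contig with the highest mean in adults, had 16382, 14698, 15657 and 16532 FPKM in larvae, 17666 and 28078 in males and 1183 and 16401 in females. Female replicate 3 lay far below all other pools, and the adult change did not pass (adjusted p = 0.489). Cytochrome c oxidase subunit I c75699_g1_i1 had 10199.7, 7920.3, 8207 and 9229 FPKM in larvae, 9491 and 12157 in males and 1027 and 7751 in females, again with its lowest value in female replicate 3. A nuclear-encoded subunit of the first complex, the NADH-ubiquinone oxidoreductase 75 kDa subunit c65252_g1_i1, had 22, 31.5, 31.5 and 32.6 FPKM in larvae, 100.3 and 98.7 in males and 59.1 and 38.9 in females. It was higher in adults (1.22 on the log2 scale, SE 0.45, adjusted p = 0.0423), in males but not in females by the test. Vacuolar proton pump subunits, which acidify vesicles and energize the caterpillar gut wall, fell in 16 of 21 contigs, 10 of them under all 4 scalings, with a median of -1.85. For example, subunit M9.7 c53479_g2_i1 had 964, 797, 813 and 979 FPKM in larvae, 179 and 197 in males and 88.1 and 161 in females. Apolipophorin III c75683_g1_i1, a blood protein that helps carry lipid fuel to insect flight muscle, had 903, 1179, 960.1 and 985 FPKM in larvae, 8823 and 7337 in males and 3893 and 3819 in females, and rose in both sexes (2.47 on the log2 scale, SE 0.33, adjusted p = 8.53e-05).

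**Figure D3:**
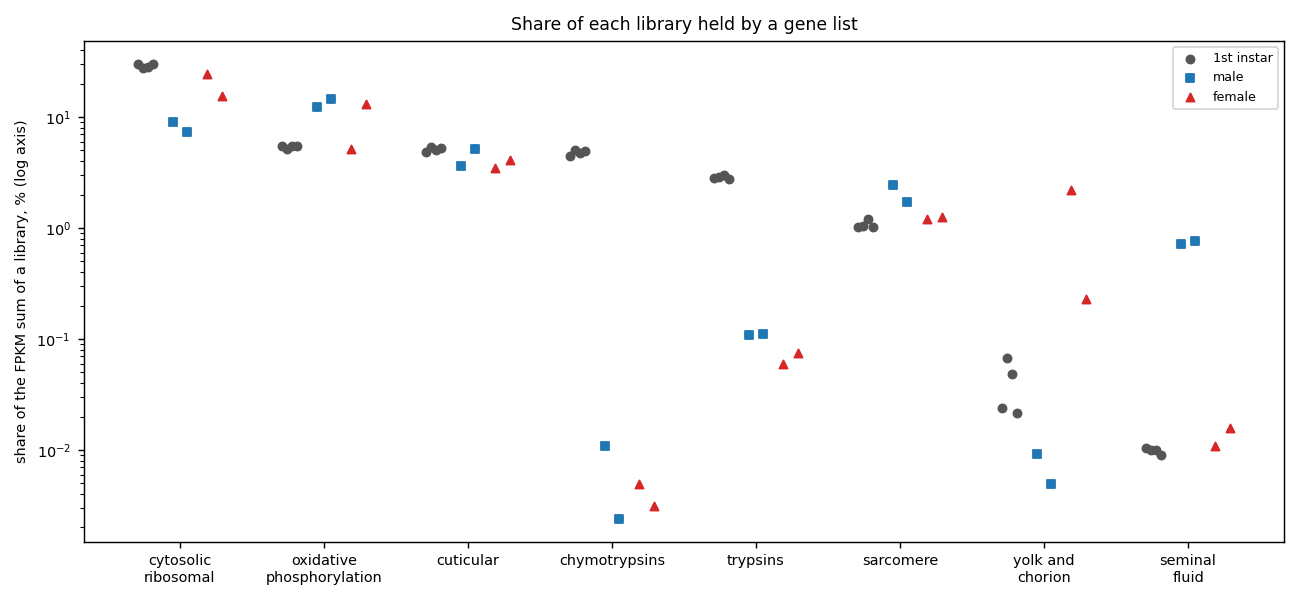
Share of the FPKM sum of each library held by 8 gene lists, in % on a log axis, for the 4 larval (grey circles), 2 male (blue squares) and 2 female (red triangles) pools. Chymotrypsins and trypsins drop from 4.48% to 5.01% and from 2.75% to 3.01% in larvae to at most 0.111% in every adult pool, whereas the yolk list reaches 2.19% and 0.228% in the 2 females and the seminal fluid list 0.712% and 0.765% in the 2 males.

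Opsins are the light-sensing receptors of photoreceptor cells, each tuned to a range of wavelengths. This moth has a second long-wavelength opsin, LWS2, which the study describes as an intronless copy of LWS1, and the 2 genes moved in opposite directions here. The stretch below shows how alike they are and where reads can tell them apart. It covers columns 301 to 420 of the study's alignment of opsin coding sequences, 5′ to 3′, 120 bases of each gene, and capitals mark the 22 bases at which they differ. Over the whole alignment 925 of 1137 bases were identical (81.4%).
LWS1: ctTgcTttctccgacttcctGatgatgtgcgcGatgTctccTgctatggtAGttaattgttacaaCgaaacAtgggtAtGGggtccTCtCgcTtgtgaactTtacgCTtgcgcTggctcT
LWS2: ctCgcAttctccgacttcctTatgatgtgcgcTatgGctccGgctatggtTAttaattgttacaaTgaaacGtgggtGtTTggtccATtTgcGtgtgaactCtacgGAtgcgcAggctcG
A fragment that lies on shared bases alone could have been assigned to either gene.

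LWS1, contig c52406_g1_i1, had 3.15, 1.9, 3.15 and 2.59 FPKM in larvae, 145 and 115 in males and 119.7 and 60.7 in females. All 4 adult pools lay above all 4 larval pools and the sexes overlapped (4.86 on the log2 scale, SE 0.29, adjusted p = 1.03e-07). LWS2, contig c57977_g1_i1, had 17.3, 14.5, 18.9 and 14.3 FPKM in larvae, 0.097 and 0.047 in males and 0.045 and 0 in females. It fell in both sexes to below 0.1 FPKM (-4.03 on the log2 scale, SE 0.21, adjusted p = 2.54e-08), and it was the only member of the opsin list that was lower in adults. One of the contigs described as the ultraviolet opsin, c52984_g1_i1, had 2.06, 2.32, 3.58 and 3.07 FPKM in larvae, 33.1 and 30.1 in males and 22.5 and 14.4 in females, and the blue opsin c59975_g1_i1 had 0.582, 0.914, 0.996 and 0.625 FPKM in larvae, 8.83 and 7.38 in males and 4.82 and 3.52 in females. Both rose in both sexes, and the blue opsin was higher in males than in females by 0.82 on the log2 scale, SE 0.23, adjusted p = 0.0396. That call was lost under 13 alternatives. Among them were libraries set to 1 sum, quantile normalization, a replicate block, and the fits without male replicate 1, without female replicate 4 or without any single larval pool. Of the 7 opsin contigs, 6 were higher and 1 lower in adults under every scaling. They were the 7 of 10 in the whole series that passed the minimum level, which some can have passed through adults alone. The list held 0.00167% to 0.00235% of a larval library and 0.0228% to 0.0368% of an adult library.

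Of 41 contigs for partners of opsins in phototransduction, such as arrestins, which end the signal, 13 passed the minimum mean level. They summed to 37.36 to 44.25 FPKM in 1st instar larvae and 210.7 to 342.4 in adults. A contig that is low in larvae passes only through pools where it is high, so its rise was partly set by the minimum. Of the 13 contigs 8 were higher in adults, under every scaling and in both sexes, and the median was 1.41. The 1 lower contig was not lower under all 4 scalings, nor without either male replicate. Arrestin 2 c62854_g1_i1 had 4.84, 3.52, 4.43 and 3.71 FPKM in larvae, 187 and 225 in males and 181 and 107 in females (5.06 on the log2 scale, SE 0.25, adjusted p = 2.04e-08). Pigment genes, which colour both eyes and cuticle, were split, with 16 of 53 higher, under every scaling, and 18 lower, 11 of them under every scaling. Their median of -0.15 was 0.30 to 1.00 under the other scalings, and in females 13 were higher, 5 or 6 without replicate 3 or 4. Ebony c56263_g3_i1, an enzyme of tan pigment formation, had 0.223, 0.202, 0.192 and 0.052 FPKM in larvae, 12.8 and 7.2 in males and 3.42 and 4.46 in females, and rose in both sexes. Scarlet c60412_g1_i1, which in Drosophila is part of the transporter that loads eye pigment granules, had 13.5, 13.4, 11 and 13.2 FPKM in larvae, 0.231 and 0.124 in males and 0.299 and 0.174 in females, and fell in both.

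Odorant-binding and chemosensory proteins are small soluble carriers of odorants and other ligands, many of them made in antennae. Both lists were divided. Of 27 contigs of odorant and pheromone binding proteins 6 rose, 11 without female replicate 4, and 6 fell, 3 of them under all 4 scalings. Of 20 chemosensory proteins 5 rose and 5 fell, 4 of them under all 4 scalings, and the median of -0.38 turned to 0.18 with quantile normalization and 0.60 with libraries set to 1 sum. The chemosensory protein CSP7 c51730_g1_i1 had 2.25, 1.67, 0.504 and 0.351 FPKM in larvae, 969 and 1033 in males and 638 and 790.5 in females, among the largest rises of described contigs (8.68 on the log2 scale, SE 0.39, adjusted p = 9.25e-09). Chemosensory protein 2 c57635_g2_i1 had 2.12, 0.059, 1.01 and 0.208 FPKM in larvae, 425 and 382 in males and 116 and 182 in females. A chemosensory protein precursor, c53066_g1_i1, ran the other way, with 95, 87, 61.9 and 96.6 FPKM in larvae and a listing at 0 in all 4 adult pools.

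Odorant-binding protein 19 c54998_g1_i1 had 4.07, 1.06, 1.43 and 0.794 FPKM in larvae, 129 and 183 in males and 32.6 and 89.1 in females, and rose in both sexes (5.15 on the log2 scale, SE 0.53, adjusted p = 1.14e-05). A general odorant-binding protein, c44601_g1_i1, from a class of carriers found in moth antennae, was listed at 0 in all larvae and had 11.6 and 5.1 FPKM in males and 18.1 and 5.72 in females, which overlap (adjusted p = 7.67e-06 for adults). Sensory neuron membrane protein 2 c46740_g1_i1, from a family of membrane proteins of moth antennae, had 17.1, 17.8, 10.5 and 15.5 FPKM in larvae, 0.149 and 0.474 in males and 0.221 and 0.034 in females, and fell in both sexes (-3.72 on the log2 scale, SE 0.26, adjusted p = 4.59e-07). It was counted in the list of odorant, gustatory and ionotropic receptors, which sit in the membrane of sensory neurons. Of 84 contigs of that list in the whole series 5 passed the minimum level. In adults 2 were higher, and sensory neuron membrane protein 2 was the 1 lower contig.

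Egg yolk transcripts marked the females. Vitellogenin is the main yolk precursor, made in fat body and taken up by eggs. Vitellogenin c63919_g1_i1 had 0.037, 0.095, 0.048 and 0 FPKM in larvae, 2.23 and 0.505 in males and 1209 and 465 in females. The females lay above all other pools, the change in males did not pass (adjusted p = 0.0731), and the sexes differed by -8.41 on the log2 scale, SE 0.53, adjusted p = 9.16e-07. The egg-specific protein precursor c54420_g1_i1, a second yolk protein of moths, had 0, 0, 0 and 0.039 FPKM in larvae, 16.6 and 2 in males and 10491 and 487 in females, and its 2 female pools lay far from each other (-8.28 on the log2 scale, SE 1.33, adjusted p = 0.00196 for males less females). A contig described only as vitellogenin protein, c63881_g5_i1, did the opposite, with 286, 849, 595 and 265 FPKM in larvae, 0 and 0 in males and 2.41 and 2.13 in females (-7.94 on the log2 scale, SE 1.05, adjusted p = 7.91e-05). Of the 8 contigs of yolk, chorion and vitellogenin receptor 4 were higher and 3 lower in females. They were the 8 of 22 in the whole series that passed the minimum level, which some can have passed through females alone. In males 1 was higher and 3 were lower, and the 1 became 0 without male replicate 1 and 3 without either female replicate.

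Germline genes keep the identity of germ cells and silence transposons in them. In females 10 of 14 contigs were higher than in larvae, under every scaling, with a median of 2.12, and none was lower. In males 9 were lower, 3 of them under all 4 scalings, and 1 was higher, with a median of -1.17. The direct test found 11 of 14 lower in males than in females, under every scaling. Nanos-M c54488_g1_i1, from a family of translational repressors of the germline, had 0.582, 0.226, 0.552 and 0.39 FPKM in larvae, 0.91 and 1.24 in males and 52.2 and 45.8 in females, and nanos-like c62723_g1_i2 had 0.198, 0.036, 0.216 and 0 FPKM in larvae, 0.179 and 0.28 in males and 90.04 and 81.6 in females. Both were higher in females than in males (-4.59 on the log2 scale, SE 0.34, adjusted p = 3.22e-06 and -6.14 on the log2 scale, SE 0.21, adjusted p = 8.03e-09), and the change in males passed for neither. For nanos-like the male change with isoforms summed was -1.27 (adjusted p = 0.0242). Aubergine c64246_g2_i1, a PIWI protein that binds small RNAs against transposons, had 8.82, 9.67, 9.55 and 10.04 FPKM in larvae, 2.31 and 2.88 in males and 32.1 and 55.4 in females, and vasa-like c62915_g3_i1, a germline RNA helicase, had 14.4, 14.9, 12.5 and 21 FPKM in larvae, 0.918 and 2.43 in males and 31.5 and 40.6 in females. Each was above the larvae in females and below them in males, as in 6 contigs of the list, although the fall of aubergine in males did not hold under all 4 scalings.

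Sperm and seminal fluid genes were higher in males than in larvae. Of 105 sperm and testis contigs in the whole series, 32 passed the minimum mean level. They summed to 27.46 to 34.7 FPKM in 1st instar larvae, 299.3 and 388.2 in males and 14.74 to 467 in 5th instar larvae. A contig that is low in larvae passes only through pools where it is high, so its rise over larvae was partly set by the minimum. Where it is also low in females, its difference between the sexes can be partly set by the minimum too. Of 32 contigs described by testis, sperm tail or axoneme 22 were higher in males than in larvae, under every scaling, with a median of 2.26, but 9 without male replicate 1 or without male replicate 2, when a single male pool is left. In females 2 were higher, 1 without female replicate 4, with a median of 0.03. Tested directly, 7 of 32 were higher in males than in females, 5 of them under all 4 scalings, against 6.83% and 5.06% over all contigs, and none was lower (0 at an unadjusted p under 0.05). The 7 became 1 without male replicate 1, male replicate 2 or female replicate 3, 3 without female replicate 4, and 14 with libraries set to 1 sum. The axonemal dynein heavy chain 8-like contig c42691_g1_i1, a motor of the sperm tail, had 0, 0, 0 and 0 FPKM in larvae, 53.8 and 99.7 in males and 0.123 and 0 in females. Tektin-2-like c59641_g1_i1, a structural protein of the same tail, had 0.062, 0.059, 0 and 0 FPKM in larvae, 26.1 and 28 in males and 0 and 0.045 in females. Both were chosen after their values were seen. The sexes differed for the first (6.13 on the log2 scale, SE 0.26, adjusted p = 4.4e-08), while for the second the difference did not pass (adjusted p = 0.0603).

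Seminal fluid proteins are secreted by the male accessory glands and passed to the female at mating. Of 35 contigs 21 were higher in males than in larvae, with a median of 2.91, and 9 were lower, 4 without male replicate 1. In females 1 was higher, 3 without either male replicate and 2 without either female replicate, and 8 were lower, with a median of 0.03. The direct test found 18 higher in males than in females, 14 of them under all 4 scalings, and none lower (0 at an unadjusted p under 0.05). Of 47 contigs of this list in the whole series, 35 passed the minimum mean level. They summed to 131.7 to 150.3 FPKM in 1st instar and 151.2 to 186.5 in 5th instar larvae. In females they summed to 58.82 and 69.71 FPKM, and in males to 4622 and 5272. A contig that is low elsewhere passes only through males, so both counts of contigs higher in males were partly set by the minimum. Over adults of both sexes 6 were higher and 10 lower, but 20 and 19 were higher without female replicate 3 and 4. Seminal fluid protein HACP021 c50500_g1_i1, also chosen after its values were seen, had 0.186, 0.297, 0.12 and 0.13 FPKM in larvae, 3576 and 4278 in males and 0.565 and 0.314 in females, a difference of 11.41 on the log2 scale, SE 0.71, adjusted p = 7.72e-07 between the sexes. Seminal fluid protein CSSFP066 c62075_g1_i1 was present at 3.01, 1.77, 1.94 and 1.81 FPKM in larvae and rose in both sexes, to 41.1 and 20.4 in males and 5.76 and 9.12 in females.

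**Figure D4:**
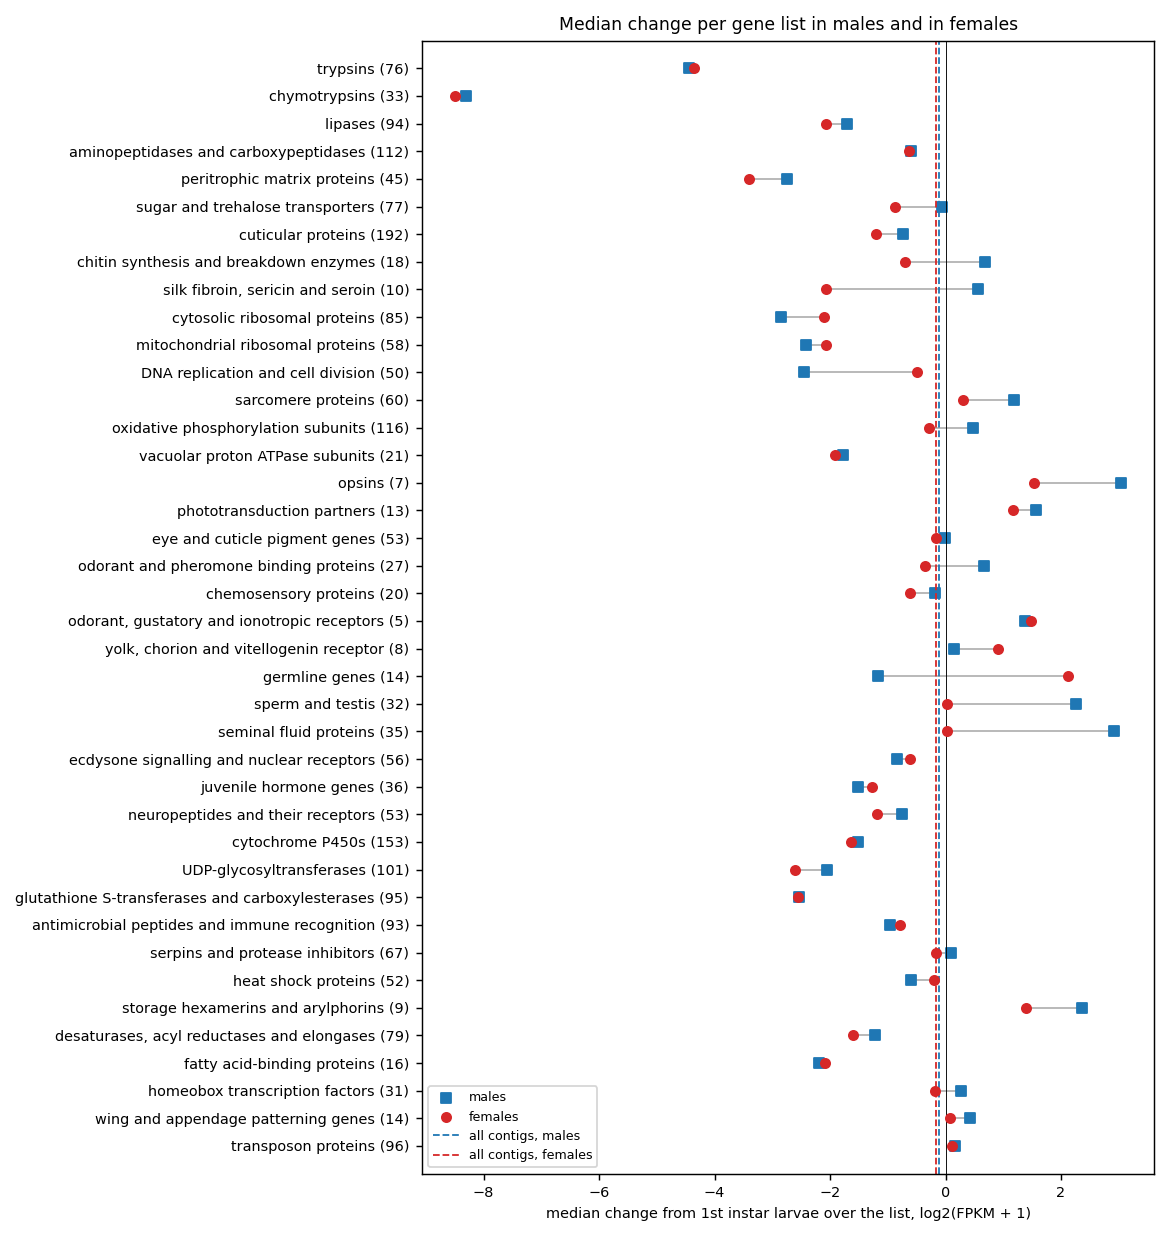
Median change from 1st instar larvae over each gene list in males (blue squares) and females (red circles), on the scale of log2(FPKM + 1), with the number of contigs of each list in brackets; both use the same 4 larval pools. The dashed lines mark the medians of all contigs, -0.11 in males and -0.17 in females, and the points lie far apart for germline genes (-1.17 and 2.12), seminal fluid proteins (2.91 and 0.03), silk (0.57 and -2.07) and DNA replication (-2.45 and -0.49).

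Hormone genes of growth and moulting had more contigs lower than higher in adults on the deposited values. With libraries set to 1 sum their counts were close to even, while over all contigs 9762 were higher and 4178 lower. Ecdysone triggers moults and juvenile hormone keeps them larval. Of 56 contigs of ecdysone signalling and nuclear receptors 26 fell, 19 of them under all 4 scalings, and 7 rose, with a median of -0.80. With libraries set to 1 sum 21 were higher and 19 lower, with a median of -0.01, below the 0.67 over all contigs. Ecdysteroid-regulated protein c54531_g1_i1 had 4041, 4214, 2866 and 2832 FPKM in larvae, 0.216 and 0.707 in males and 0.727 and 0.46 in females (-11.15 on the log2 scale, SE 0.46, adjusted p = 4.13e-09). Ecdysone oxidase c80839_g1_i1, an enzyme that inactivates the hormone, had 172, 98.7, 242 and 249 FPKM in larvae, 0.022 and 0.039 in males and 0 and 0.011 in females, and fell in both sexes. Ecdysteroid 22-kinase, which stores ecdysteroids as phosphates, was represented by contigs that moved in opposite directions. Contig c62068_g1_i2 had 84.2, 46.2, 65.1 and 90.1 FPKM in larvae, 0.336 and 0 in males and 0.084 and 0 in females, whereas c51787_g1_i1 had 0.173, 0, 0 and 0 FPKM in larvae, 0.634 and 1.72 in males and 24.4 and 17.2 in females, and the latter was higher in females than in males (-3.35 on the log2 scale, SE 0.27, adjusted p = 7.47e-06 for males less females).

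Of 36 juvenile hormone contigs 17 fell, 15 of them under all 4 scalings, and 7 rose. The 7 became 2 without either male replicate, 11 without female replicate 3 and 4 without female replicate 4. The median of -0.94 was 0.05 with libraries set to 1 sum, when 14 were higher and 15 lower and the median of all contigs was 0.67. Juvenile hormone epoxide hydrolase c75686_g1_i1, which degrades the hormone, had 115, 80.1, 116 and 147 FPKM in larvae, 0 and 0 in males and 0.019 and 0.067 in females. Of the binding proteins that carry the hormone in blood, c59458_g1_i1 had 269.8, 183, 218 and 237 FPKM in larvae, 1.06 and 0.669 in males and 0.617 and 1.06 in females, and fell in both sexes, and c55079_g1_i1 had 0.149, 0, 0.192 and 0 FPKM in larvae, 12.8 and 12.1 in males and 10.4 and 10.3 in females, and rose in both. Neuropeptides and their receptors fell in 33 of 53 contigs, 15 of them under all 4 scalings, and 1 rose, with a median of -0.95. The 1 became 0 without male replicate 1, and 2 and 3 without female replicates 3 and 4. Myosuppressin c46286_g1_i1, a peptide that quietens gut muscle, had 31.2, 24.5, 20.6 and 34.1 FPKM in larvae, 4.18 and 4.7 in males and 2.32 and 1.16 in females, and fell in both sexes. Orcokinin c54940_g2_i3, a brain and gut peptide, had 13.4, 15.5, 11.2 and 14.3 FPKM in larvae, 184 and 244 in males and 1.05 and 0.438 in females, above the larvae in males and below them in females (6.96 on the log2 scale, SE 0.27, adjusted p = 1.93e-08 between the sexes).

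Detoxification families fell together. Cytochrome P450s oxidize, and glutathione S-transferases, carboxylesterases and UDP-glycosyltransferases conjugate or split, plant toxins, insecticides and the insect's own hormones. Lower in adults were 91 of 153 P450 contigs (69 under all 4 scalings), 68 of 101 UDP-glycosyltransferases (50) and 71 of 95 glutathione S-transferases and carboxylesterases (53). Higher were 14, 9 and 6, and the medians were -1.60, -2.22 and -2.60. In both sexes alike 79, 59 and 67 were lower and 10, 6 and 5 higher. As shares of the library, P450s went from 0.366% to 0.557% in larvae to 0.263% to 0.272% in adults.

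The P450 CYP4M6 c42225_g1_i1 had 246, 191, 224 and 225 FPKM in larvae, 0.209 and 0.536 in males and 0.019 and 0.034 in females, and fell (-7.55 on the log2 scale, SE 0.40, adjusted p = 3.45e-08). CYP321B1 c80819_g1_i1 had 692, 803, 392 and 621 FPKM in larvae, 0 and 5.74 in males and 2.14 and 7.85 in females, and also fell in both sexes. In contrast CYP6AE15v2 c58699_g1_i1 had 0.718, 0.333, 0.876 and 0.416 FPKM in larvae, 49.5 and 71.7 in males and 64.2 and 51 in females (5.24 on the log2 scale, SE 0.45, adjusted p = 2.54e-06). Glutathione S-transferase E2 c53530_g1_i3 had 328, 264, 228 and 302 FPKM in larvae, 0 and 0.49 in males and 0.084 and 0.258 in females, and fell, and antennal esterase CXE5 c58485_g1_i1, named for the organ in which such enzymes clear odorants, had 0.768, 1.44, 2.46 and 1.15 FPKM in larvae, 20.4 and 41.8 in males and 275 and 14.6 in females, all above the larvae but with the females far apart (4.23 on the log2 scale, SE 1.02, adjusted p = 0.00512). UDP-glycosyltransferase UGT33F1 c59385_g3_i3 fell by 6.82 (SE 0.35, adjusted p = 2.86e-08) on the log2 scale, while UGT33B7 c56158_g5_i1 had 0.669, 0.724, 1.69 and 2.69 FPKM in larvae, 73.3 and 30.7 in males and 4.17 and 45.6 in females, and rose.

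Of 93 contigs for antimicrobial peptides and immune recognition 44 fell, 32 of them under all 4 scalings, and 6 rose, 10 without female replicate 4, with a median of -0.86. The list held 0.174% to 0.336% of a larval library, 0.293% and 0.377% of a male and 0.702% and 0.589% of a female library. Cobatoxin c52944_g1_i1, described by its likeness to a scorpion toxin, was listed at 0 in all larval pools and had 705 and 1093 FPKM in males and 657 and 511 in females (adjusted p = 1.09e-09). The antibacterial peptides gloverin-like c58541_g1_i2 and lebocin-like c47865_g1_i1 fell in both sexes, from 299.8, 267, 249.6 and 160.4 and from 179.9, 394, 278 and 155 FPKM in larvae to at most 3.2 FPKM in adults. C-type lectin 21 c61102_g2_i1, from a family that recognizes sugars on microbes, had 1.58, 0.748, 0.684 and 1.85 FPKM in larvae, 1.93 and 16.8 in males and 79.4 and 119 in females, higher in females than in males (-3.77 on the log2 scale, SE 0.87, adjusted p = 0.0181 for males less females). That call was lost with a replicate block and when only the adult libraries were fitted. It was also lost without male replicate 1, female replicate 3 or female replicate 4. Serpins and other protease inhibitors had 9 of 67 contigs higher, 16 and 17 without female replicate 3 and 4, and 20 lower, 11 of them under all 4 scalings, with a median of 0.14. On the deposited values both counts lay near the shares over all contigs, 14.1% higher and 31.6% lower. With libraries set to 1 sum 19 were higher and 11 lower.

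Heat shock proteins, which keep other proteins folded, had 22 of 52 contigs lower, 5 of them under all 4 scalings, and 8 higher. Over all contigs 31.6% were lower, 15.0% under all 4 scalings, and 14.1% higher. The count of higher members lay near that share, and that of lower members under all 4 scalings lay below it. The median of -0.18 was 0.20 to 0.89 under the other scalings. The small heat shock protein hsp20.1 c56846_g1_i1 was listed at 0 in all larvae and had 239.7 and 176 FPKM in males and 116 and 88.4 in females (adjusted p = 2.23e-08). Small heat shock protein G1 c42321_g1_i1 fell from 1402, 1050.0, 1111 and 1499 FPKM to 46.8 and 56.6 in males and 174 and 129 in females (-1.53 on the log2 scale, SE 0.42, adjusted p = 0.0408 for males less females). That call was lost under 12 alternatives, among them median-ratio scaling, a replicate block, and without any single adult or larval pool.

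Most contigs of lipid genes were lower in adults, and storage proteins rose. Of 79 desaturases, acyl reductases and elongases, which build and modify fatty acids, 51 fell, 24 of them under all 4 scalings, and 1 rose, 5 and 4 without female replicates 3 and 4. By share of the library the stages overlapped, with 0.172% to 0.189% in larvae, 0.176% and 0.264% in males and 0.087% and 0.315% in females. Acyl-CoA desaturase c55444_g1_i1 had 510.3, 438, 309 and 465 FPKM in larvae, 0 and 0 in males and 0.084 and 0.022 in females. Of 16 fatty acid-binding proteins, carriers of lipid inside cells, 11 fell and none rose, with a median of -2.13. Fatty acid-binding protein 1 c54696_g1_i1 had 10409.7, 6882, 7769 and 11819 FPKM in larvae, 0 and 0 in males and 0.097 and 0.157 in females, the second largest fall named here (-13.05 on the log2 scale, SE 0.36, adjusted p = 1.84e-10), and fatty acid-binding protein 2 c53397_g1_i1 had 2697, 2065, 2068 and 2651 FPKM in larvae, 0 and 0.14 in males and 0 and 0 in females. Hexamerins and arylphorins are amino acid stores that late larvae make for metamorphosis. Of 9 contigs 6 were higher in adults, under every scaling, and none lower, with a median of 1.86. The methionine-rich storage protein c48066_g1_i1 was listed at 0 in larvae and had 14.5 and 107 FPKM in males and 97.9 and 258 in females (adjusted p = 0.00124). Arylphorin c45698_g1_i1 had 0.52, 0.546, 1.32 and 0 FPKM in larvae, 26.4 and 57.5 in males and 6.94 and 5.05 in females, and rose in both sexes. These levels were small beside those of 5th instar larvae, in which the list held 3.97% to 9.82% of a library against 0.0154% to 0.0642% in adults.

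Few patterning genes passed the test over adults of both sexes, and more did in males. Over all contigs, too, more were higher in males (20.6%) than in adults of both sexes (14.1%). Of 14 wing and appendage patterning genes 1 rose and 2 fell, and 12 rose with libraries set to 1 sum. In males 7 were higher, 6 of them under all 4 scalings, against 20.6% and 20.2% over all contigs, but 3 without male replicate 1, and in females 1 was higher. Tested directly, 3 were higher in males than in females, but 0 without male replicate 1 or female replicate 3. Vestigial-like c60191_g5_i1, in Drosophila the selector of wing identity, had 0.731, 1.01, 0.744 and 1.01 FPKM in larvae, 30.6 and 34.1 in males and 35.2 and 24.3 in females, without overlap (4.09 on the log2 scale, SE 0.22, adjusted p = 3.97e-08). Wnt-6 c55160_g1_i1, a secreted signal of the Wnt family, had 5.39, 5.02, 4.28 and 5.57 FPKM in larvae, 1.7 and 1.94 in males and 1.03 and 0.831 in females, and fell (-1.38 on the log2 scale, SE 0.20, adjusted p = 0.000183). Homeobox transcription factors, which set body regions, had 2 of 31 contigs higher and 5 lower, 17 higher with libraries set to 1 sum, and the 2 became 1 without male replicate 2 or female replicate 4. In males 8 were higher, under all 4 scalings, but 4 without male replicate 2, and in females 1, and 5 were higher in males than in females, 3 of them under all 4 scalings. These homeobox counts in males lay near the shares over all contigs, 20.6% on the deposited values and 20.2% under all 4 scalings. Over all contigs 6.83% were higher in males than in females, 5.06% under all 4 scalings. The median of the homeobox list over adults of -0.05 was 0.24 to 0.81 under the other scalings. Transposon proteins had 10 of 96 contigs higher and 19 lower, against 14.1% and 31.6% over all contigs, and 46 higher with libraries set to 1 sum.

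Outside these lists, 3 of the 49 contigs that were higher in males and lower in females were named for the size of the difference between the sexes. An acid phosphatase, c64103_g2_i1, had 15.9, 15.2, 12.5 and 10.5 FPKM in larvae, 222 and 208 in males and 2.64 and 1.27 in females (6.23 on the log2 scale, SE 0.86, adjusted p = 0.000663 between the sexes). A carbonic anhydrase 15-like contig, c54975_g1_i1, from a family that interconverts carbon dioxide and bicarbonate, had 10.5, 14.4, 8.25 and 16.4 FPKM in larvae, 157 and 122 in males and 3.47 and 2.24 in females (5.20 on the log2 scale, SE 0.34, adjusted p = 1.31e-06). Tetraspanin-18-like c35279_g1_i1, from a family of membrane organizers, had 1.73, 1.72, 1.72 and 1.99 FPKM in larvae, 35.3 and 39.7 in males and 0.234 and 0.168 in females (5.00 on the log2 scale, SE 0.34, adjusted p = 1.83e-06). In each the males lay above and the females below all larval pools, but the falls in females did not hold under all 4 scalings. The VAP-peptide precursor c46722_g1_i1, described by its match in Bombyx, was among the largest rises of all: it was listed at 0 in larvae and had 1452 and 266 FPKM in males and 13.7 and 165 in females, higher in males (3.65 on the log2 scale, SE 0.96, adjusted p = 0.0333). That call was lost under 12 alternatives. Among them were libraries set to 1 sum, quantile normalization, a replicate block, and the fits without male replicate 1, without female replicate 3 or without any single larval pool.

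A comparison of 2 male with 2 female pools cannot reach 0.05 by an exact permutation test, so the calls between the sexes rest on the spread that limma pools over all groups and contigs. Of the 30 contigs named with such a call, 24 kept it under all 4 scalings and 16 under every alternative. The calls of alpha amylase, the putative lipase, proliferating cell nuclear antigen, thymidylate synthase, flightin and the egg-specific protein were lost only when the adult libraries alone were fitted.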

How the data were processed

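Poly(A) RNA of 12 pools of whole *H. armigera* was sequenced with paired ends. The authors assembled the reads with Trinity 2.0.6, mapped them to the contigs with Bowtie 0.12.7 and estimated abundance with RSEM 1.1.17, tools named in the submitters' processing notes or the study's methods, and the deposited table gives, for each contig, its FPKM in every library and its database descriptions. The deposited FPKM values carry no read counts, so no depth per contig, counting interval or count model is given. Every column of the table belonged to 1 of the 12 samples (0 others).

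Contigs with a mean of at least 1 FPKM over all 12 libraries were tested with limma 3.58.1 (R 4.3.3, with trend) on log2(FPKM + 1), in which fold changes of low contigs are understated. Adults were compared with 1st instar larvae in a fit with 3 stages, and each sex with larvae, and the sexes with each other, in a fit with 4 groups. Adjusted p-values are by Benjamini-Hochberg over all contigs tested, with a threshold of 0.05. The fit was tested on simulated data with known changes. A two-sided exact permutation test of 4 against 4 pools gives its smallest p, 0.0286, whenever the groups do not overlap. Contigs were partly named for lack of overlap, so no count by that test is given. Tables and plots were made in Python 3.11.15 (pandas 2.3.3, numpy 2.4.6, matplotlib 3.10.9).

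Lists were formed by words in the nr descriptions, so they rest on likeness to described proteins. Of the 27664 contigs counted, 2211 fell in at least 1 of the 40 lists. The contigs named are described contigs with the largest changes in adults without overlap between the groups, the largest changes or highest levels within a list, the highest levels in either stage, and the largest differences between the sexes among contigs called in opposite directions. A further 5, named as such in the text, were chosen after their values were seen. The comparison, the lists and this rule were chosen with earlier results of these data known. Alternatives were another pseudocount, no filter or a mean of at least 5 FPKM, libraries set to the same sum (TPM), quantile and median-ratio scaling, and isoforms summed per unigene. Others were fits of only the libraries compared, the sexes as separate groups in the stage fit, a replicate block and robust estimates of spread. The mouse and whipworm contigs were also left out of the fit, and each adult or 1st instar library was left out in turn. Columns of other databases were not used. Coding sequences of LWS1 and LWS2 were read from the alignment in the study's supplement, and its table links them to their unigenes. No sequences of other contigs were used here.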

Additional observations from a re-analysis of the deposited data

Results flagged for a closer look

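In 11 of the 104 contigs named, 1 larval pool lay far from the other 3 by Dixon's criterion for 4 values. For normally distributed values chance alone sets apart about 1 in 20 groups, a rate that does not hold for FPKM with a floor at 0. A contig listed at 0 in 3 pools and above 0 in 1 is always set apart, as were c48004_g1_i1, c57573_g1_i1, c54420_g1_i1 and c51787_g1_i1. The highest of 4 larval values stood out for peritrophin type-A domain protein c50737_g1_i1 (2.79 FPKM), putative cuticle protein c48004_g1_i1 (0.384), ribosomal protein S2 c49853_g1_i1 (7794), troponin C isoform 1-like c57573_g1_i1 (0.087), egg-specific protein c54420_g1_i1 (0.039), seminal fluid protein CSSFP066 c62075_g1_i1 (3.01), ecdysteroid 22-kinase c51787_g1_i1 (0.173) and tetraspanin-18-like c35279_g1_i1 (1.99). The lowest stood out for troponin I c50343_g1_i2 (2153 FPKM), the NADH-ubiquinone oxidoreductase subunit c65252_g1_i1 (22.0) and scarlet c60412_g1_i1 (10.98).

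For 30 of the 104 contigs the change from larvae differed between males and females by limma's test of the difference, 24 of them under all 4 scalings. The call was lost under another scaling for c61708_g1_i1, c75881_g1_i1, c59975_g1_i1, c62075_g1_i1, c46722_g1_i1 and c42321_g1_i1. Its values, males less females on the log2 scale, were as follows.

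Higher in males were seminal fluid protein HACP021 c50500_g1_i1 by 11.41, orcokinin c54940_g2_i3 by 6.96, putative lipase c51948_g1_i1 by 6.87, acid phosphatase c64103_g2_i1 by 6.23, axonemal dynein c42691_g1_i1 by 6.13 and chitinase c61813_g1_i1 by 6.12. Carbonic anhydrase 15-like c54975_g1_i1 followed by 5.20, seroin 1 c59916_g3_i3 by 5.04, tetraspanin-18-like c35279_g1_i1 by 5.0 and the VAP-peptide precursor c46722_g1_i1 by 3.65. Smaller differences were those of flightin c53528_g2_i1 (2.35), CSSFP066 c62075_g1_i1 (1.86), alpha amylase c59075_g1_i1 (1.83), troponin C c75881_g1_i1 (1.37), sugar transporter 4 c61708_g1_i1 (1.36), miniparamyosin c71511_g1_i1 (1.24) and the blue opsin c59975_g1_i1 (0.82).

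Higher in females, with negative differences, were vitellogenin c63919_g1_i1 (-8.41), egg-specific protein c54420_g1_i1 (-8.28), serine carboxypeptidase CPVL c63652_g1_i2 (-7.47), nanos-like c62723_g1_i2 (-6.14), nanos-M c54488_g1_i1 (-4.59), the cyclin B-like contig c61776_g1_i1 (-4.49) and proliferating cell nuclear antigen c56271_g1_i1 (-4.01). Vasa-like c62915_g3_i1 (-3.84), C-type lectin 21 c61102_g2_i1 (-3.77), aubergine c64246_g2_i1 (-3.59), ecdysteroid 22-kinase c51787_g1_i1 (-3.35), thymidylate synthase c61372_g2_i1 (-2.32) and small heat shock protein G1 c42321_g1_i1 (-1.53) followed.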

How the results depend on the processing

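Of the 104 contigs named, 89 passed the test in adults, 88 of them under the 3 other scalings and 83 under every alternative given in the methods. In males the counts were 96, 94 and 89, and in females 97, 91 and 82. Changes that reversed were those of c62562_g2_i1 in females (-0.05, adjusted p = 0.985) and of c62723_g1_i2 in males (-1.27, adjusted p = 0.0242) with isoforms summed per unigene. The cause was not tested.

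Counts over all contigs moved more. With a mean of at least 5 FPKM, which leaves fewer contigs, 1524 were higher and 5376 lower in adults, 2158 and 5246 in males, 1210 and 4941 in females, and 901 and 899 in males against females. With no filter, 11220 were higher in males than in larvae and 4087 in males than in females. With libraries set to the same sum, 9762 were higher and 4178 lower in adults, 10061 and 5232 in males, 10271 and 3510 in females, and 3408 were lower in males than in females. With quantile normalization 5375 were higher and 4773 lower in females, and 2871 were lower in males than in females. In the same direction under all 4 scalings, 4137 were lower in adults, 5220 in males and 3455 in females. When only the 4 adult libraries were fitted, 294 were lower in males than in females.

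Each library was left out in turn. Higher contigs then ranged from 2916 to 5128 in adults, from 4028 to 5865 in males, from 2358 to 2980 in females and from 1193 to 2361 in males against females. Lower contigs ranged from 7804 to 8933, from 6658 to 8830, from 6233 to 7565 and from 705 to 1945. The lowest of the last came without male replicate 1, and 881 were left without female replicate 3. Without 1 pool of a sex its single remaining pool is assumed to vary like the other groups.

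The replicate numbers of larvae and adults mark no shared animals, a table of the study numbers some larval libraries in another order than the deposited one, and deviations of same-numbered pools of the 2 stages correlated at -0.03 to 0.016. With the replicate number as a block, 3536 contigs were higher and 8353 lower in adults, 4883 and 7663 in males, 2197 and 6639 in females, and 1033 and 487 in males against females. Limits from depth cannot be given without read counts per contig, and contigs listed at 0 in larvae have no bound on their fold change.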
